A study of Mus musculus with 19 samples.

Results

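The complement components and receptors described here are 9 mouse genes, C1qa, C1qb, C1qc, C3, C4b, C3ar1, C5ar1, Itgam and Serping1. They were found among the 48709 genes of the deposited count files by matching Ensembl identifiers to these symbols in GENCODE release M21, and all 9 had enough reads to be tested. RNA from the microdissected CA1 region of the hippocampus was sequenced in 19 libraries from mice that were 7 months old. By their Xist and Ddx3y reads all 19 libraries were male. WT control (n = 6) were wild-type littermates, APP control (n = 6) were APPPS1-21 mice, and APP anti-miR-mix (n = 7) were APPPS1-21 mice given inhibitors of miR-148a-3p, miR-146a-5p and miR-181a-5p. All animals had lipid nanoparticles injected into the dorsal hippocampus, and both control groups received control oligonucleotides in place of the inhibitors. The titles of the wild-type libraries carry the words anti-miR-mix beside WT control, and they were read here as control-treated, as in the study's description. APPPS1-21 mice carry human APP with the Swedish mutation, driven by Thy1 promoter sequence and therefore expressed mainly in neurons, and they deposit amyloid. The 3 comparisons address the effect of the transgenes, the effect of the inhibitors in transgenic mice, and the distance of treated transgenic mice from wild type.

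Complement is a cascade of proteins that tags targets for removal. In the classical pathway, C1q binds the target and C4 and then C3 are cleaved, which leaves fragments of C3 on the surface and releases the small peptides C3a and, further down, C5a. In the brain C1q is made chiefly by microglia, C4 is made in good part by glia such as astrocytes, and microglia carry the receptors for the fragments. The pathway is known for its part in the removal of synapses and for its presence at amyloid plaques.

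C1qa, C1qb and C1qc, the component gene C4b and the receptor genes C3ar1, C5ar1 and Itgam were higher in both APPPS1-21 groups than in WT control, with mean changes of 1.76-fold to 3.50-fold. C3 and Serping1 did not pass the test in any of the 3 comparisons. None of the 9 genes passed it when APP anti-miR-mix was set against APP control.

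The inhibited microRNAs are shown first because their seeds define which of these transcripts hold a possible pairing site. The mature sequences are from RefSeq (GRCm38.p6), 5′ to 3′, with bases 2 to 8, the seed, in capitals:
miR-181a-5p: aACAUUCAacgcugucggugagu
miR-146a-5p: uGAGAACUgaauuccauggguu
miR-148a-3p: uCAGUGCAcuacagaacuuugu

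The 3 seeds differ from each other. Their reverse complements were searched on the sense strand of 1 annotated 3′ UTR per gene (GENCODE M21, median length 960 bp over 21037 genes). TGAATGT, the match to miR-181a-5p, occurred in 16.4% of these UTRs, AGTTCTC, the match to miR-146a-5p, in 11.15%, and TGCACTG, the match to miR-148a-3p, in 12.71%. Of the 9 genes, C3ar1, C5ar1 and Itgam held matches. Each is printed below with 8 bases on either side and the match in capitals:
C3ar1, miR-146a-5p, chr6:122849782-122849804, minus strand: ctaagcagAGTTCTCaggtgaac
C3ar1, miR-148a-3p, chr6:122847623-122847645, minus strand: aataacacTGCACTGtgtatgtg
C5ar1, miR-181a-5p, chr7:16246980-16247002, minus strand: cagcttaaTGAATGTgtgtgcat
Itgam, miR-181a-5p, chr7:128118301-128118323, plus strand: tactattaTGAATGTtgtctttt

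The first C3ar1 match lay at bases 27 to 33 of a UTR of 2685 bp and was followed by an A, and the other matches were not. The UTRs of C1qa, C1qb and C1qc (237, 160 and 239 bp), C3 (43 bp), C4b (106 bp) and Serping1 (522 bp) held none of the 3 matches. A match of 7 letters is a description of the sequence, and no binding was measured.

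Library quality was examined before the genes. Total counts ranged from 19362343 to 37018917 per library. The CA1 marker list (Wfs1, Fibcd1, Mpped1 and Pou3f1) was present in all libraries, with a summed level of 20634 to 34627 normalized counts. The summed level of 5 dentate gyrus markers (Prox1, Dsp, C1ql2, Calb2 and Tdo2) was 1143 to 2332 across WT control. It was 1211 to 3321 across APP control and 1206 to 2924 across APP anti-miR-mix. Dsp alone ranged from 4.57 to 437, 19.7 to 481 and 12.5 to 478 in these groups, so dentate gyrus RNA differed between libraries. APP control 5 stood apart, with 1209.5 normalized counts of S100a8 and 1523 of S100a9, which are granulocyte genes, against at most 31.9 and 66.3 in the other 18 libraries, and with a microglial marker score of 9.69, within the WT control range of 9.45 to 10.2 (mean of log2(normalized count + 1) over 9 genes). WT control 5 and APP anti-miR-mix 6 carried the most choroid plexus marker RNA, with summed levels of 2434 and 1703 normalized counts. WT control 1 was the highest WT control library for 8 of the 9 genes, all but C5ar1.

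C1qa, C1qb and C1qc encode the A, B and C chains of C1q, the recognition molecule of the classical pathway. They lie side by side within chromosome 4 on the minus strand (GRCm38: C1qb chr4:136880129-136886187, C1qc chr4:136889804-136893065, C1qa chr4:136895917-136898803). Levels are given in normalized counts, which are raw read counts divided by the DESeq2 size factor of the library, and as lowest, median and highest library of a group. C1qa had 1590.4, 1894 and 3429.9 normalized counts across WT control. It had 3402, 5596 and 7573 across APP control and 3759, 5723 and 6857 across APP anti-miR-mix. The WT control and APP control libraries met at a single point, since WT control 1 was just above APP control 6, and the APP anti-miR-mix libraries were all above WT control. C1qa was 2.46-fold higher in APP control relative to WT control (95% interval 1.83 to 3.31, DESeq2 adjusted p = 3.89e-07).

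C1qb had 1472, 1910.5 and 3411 normalized counts across WT control, 3184, 5706 and 7295 across APP control, and 3843, 5923 and 6552 across APP anti-miR-mix. Its difference between APP control and WT control was 2.45-fold (1.82 to 3.29, DESeq2 adjusted p = 4.49e-07). For C1qc the values were 1277, 1618 and 2809.8 across WT control, 2627, 4443 and 6061 across APP control, and 3134, 4806 and 5491 across APP anti-miR-mix. The C1qc difference was 2.39-fold (1.80 to 3.17, DESeq2 adjusted p = 2.91e-07). As for C1qa, the same pair of libraries met between the groups in both genes. Without WT control 1 the log2 differences of C1qa, C1qb and C1qc were 1.46, 1.46 and 1.41, against 1.30, 1.29 and 1.26 with it.

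The C1q chains moved together library by library. Per kilobase of exon, C1qa stood at 1.06 ± 0.04 times C1qb over the 19 libraries (mean ± SD), above it in 18 of 19. C1qa stood at 2.27 ± 0.10 times C1qc, with group means of 2.22 across WT control, 2.29 across APP control and 2.29 across APP anti-miR-mix. The ratio of C1qa to C1qc therefore varied by 4.52% (CV) while the level of C1qa varied by 21.9% to 32.6% within groups. The exonic length of C1qc, 1931 bp against 1040 bp for C1qa, enters this ratio, and without it C1qa and C1qc differed by 1.22-fold in normalized counts. With group means removed, the log2 levels of the 3 chains had pairwise correlations of 0.988 to 0.993 over 19 libraries.

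**Figure D1:**
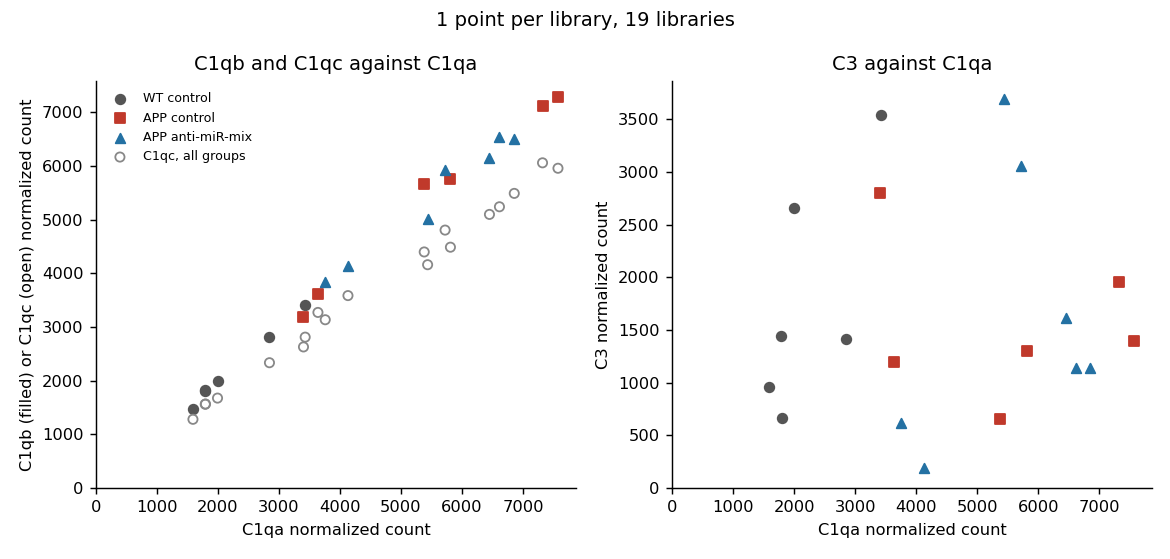
Normalized counts per library (19 libraries), with C1qa on both x axes, C1qb (filled symbols by group) and C1qc (open circles) on the left y axis and C3 on the right y axis. The C1q chains follow straight lines through all groups, while the C3 values, from 186 to 3689, are scattered.

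C4b encodes complement C4, the substrate of the activated C1 complex (GRCm38 chr17:34728380-34743882, minus strand). It had the highest normalized count of the 9 genes, with 3934, 5078 and 11064 across WT control (lowest, median, highest). The values were 8811, 11413 and 16930.4 across APP control, and 6672, 11448 and 12068 across APP anti-miR-mix. The highest WT control value, from WT control 1, exceeded 3 of 6 APP control and 2 of 7 APP anti-miR-mix libraries, and the next WT control library was at 5729, below all transgenic libraries. C4b was 2.03-fold higher in APP control relative to WT control (1.40 to 2.95, DESeq2 adjusted p = 0.00636) and 1.76-fold higher in APP anti-miR-mix than in WT control (1.23 to 2.52, adjusted p = 0.0258). Without WT control 1 these differences were 1.31 and 1.10 on the log2 scale, against 1.02 and 0.82 with it. The second call was not kept in 9 of the 19 fits that each left out a single library, with adjusted p up to 0.0752.

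Of the 50-base stretches in C4b transcripts, 34.57% also occur in C4a, its neighbour in the complement cluster of chromosome 17, so reads of 50 nt could not be told apart there. C4a stayed at 82.0 ± 15.8, 90.3 ± 10.4 and 97.6 ± 11.5 normalized counts across WT control, APP control and APP anti-miR-mix (mean ± SD). Its difference between APP control and WT control was 1.10-fold (0.917 to 1.33, DESeq2 adjusted p = 0.772).

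C3 encodes the component on which all activation routes of complement converge (GRCm38 chr17:57203970-57228136, minus strand). Its lowest, median and highest values were 662, 1426 and 3543 normalized counts across WT control, 655, 1348 and 2797 across APP control, and 186, 1140.5 and 3689 across APP anti-miR-mix. The 3 groups overlapped over almost their whole range, and the highest and the lowest APP anti-miR-mix library differed by 19.9-fold. That ratio rests on APP anti-miR-mix 2, at 186, with the next library at 617, and was 5.98-fold without it. Across WT control and APP control the ratio was 5.35-fold and 4.27-fold, and 3.69-fold and 2.33-fold without the lowest library of each, WT control 2 and APP control 1. The C3 difference between APP control and WT control was 0.872-fold with an interval from 0.406 to 1.87 (DESeq2 adjusted p = 0.958). The interval of APP anti-miR-mix against WT control was 0.440 to 1.92 (adjusted p = 0.948). The direction of C3 rests on single libraries, since the log2 differences of -0.20 and -0.12 became 0.12 and 0.20 without WT control 1, and the second also turned without WT control 4, APP anti-miR-mix 2 or APP anti-miR-mix 7. Within groups, C3 had an SD of 1.10 on the log2 scale, against a median of 0.15 over the 14091 genes with a mean of at least 50 normalized counts, and 0.170% of these genes varied more. The rest of the 9 genes also varied more than most genes. Their SDs ran from 0.33 for C3ar1, with 9.03% of genes above it, to 0.53 for Serping1, with 2.02% above it.

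Among the receptor genes, C3ar1 and C5ar1 separated wild-type from transgenic libraries without overlap. C3ar1 encodes the receptor for C3a (GRCm38 chr6:122847138-122856161, minus strand). It had 101, 143 and 188 normalized counts across WT control, 309.6, 443 and 544 across APP control, and 336, 492 and 631 across APP anti-miR-mix. All 13 transgenic libraries were above all 6 WT control libraries. C3ar1 was 3.10-fold higher in APP control relative to WT control (2.43 to 3.95, DESeq2 adjusted p = 2.39e-16) and 3.50-fold higher in APP anti-miR-mix (2.77 to 4.43, adjusted p = 5.99e-22), and these ranked 6 and 3 by p-value among the 19297 genes tested.

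C5ar1, which encodes the receptor for C5a (GRCm38 chr7:16246743-16259540, minus strand), was the least abundant of the 9 genes, with 17 to 153 raw reads per library. It had 22.4, 36.7 and 46.3 normalized counts across WT control, 67.8, 100.1 and 143 across APP control, and 74.7, 98.5 and 107 across APP anti-miR-mix. No transgenic library overlapped with WT control. The difference was 2.70-fold between APP control and WT control (2.06 to 3.54, DESeq2 adjusted p = 3.91e-10). C5ar1 is also a gene of granulocytes, and its highest value, 143, was in APP control 5, the library with high S100a8 and S100a9. Without that library the log2 difference was 1.28 (adjusted p = 9.36e-10), against 1.43 with it.

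Itgam encodes CD11b, the alpha chain of complement receptor 3, which binds fragments of C3 on tagged surfaces (GRCm38 chr7:128062640-128118491, plus strand). Its values were 249, 299 and 439 normalized counts across WT control, 297, 609 and 742 across APP control, and 462, 619 and 828 across APP anti-miR-mix. APP control 5 was at 297, inside the WT control range, and the other 12 transgenic libraries were above that range. Itgam was 1.77-fold higher in APP control relative to WT control (1.35 to 2.31, DESeq2 adjusted p = 0.0015). The log2 difference was 0.96 without APP control 5, against 0.82 with it. Of the 50-base stretches in Itgam transcripts, 66.34% are shared with Gm49368, an annotated gene on the same strand that had 6 reads in all libraries together, so the level of Itgam depends on how the counting treated that overlap.

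Serping1 encodes the C1 inhibitor, which blocks the proteases of the C1 complex (GRCm38 chr2:84765387-84775444, minus strand). It had 204, 384 and 709 normalized counts across WT control, 297, 572 and 729.8 across APP control, and 352, 599 and 757 across APP anti-miR-mix. The groups overlapped, though 5 of 6 APP control and 5 of 7 APP anti-miR-mix libraries lay above the WT control median. The differences from WT control were 1.35-fold (0.908 to 2.02, DESeq2 adjusted p = 0.572) and 1.33-fold (0.906 to 1.96, adjusted p = 0.458). Without WT control 1 the log2 differences were 0.66 and 0.63, with adjusted p of 0.102 and 0.0759.

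**Figure D2:**
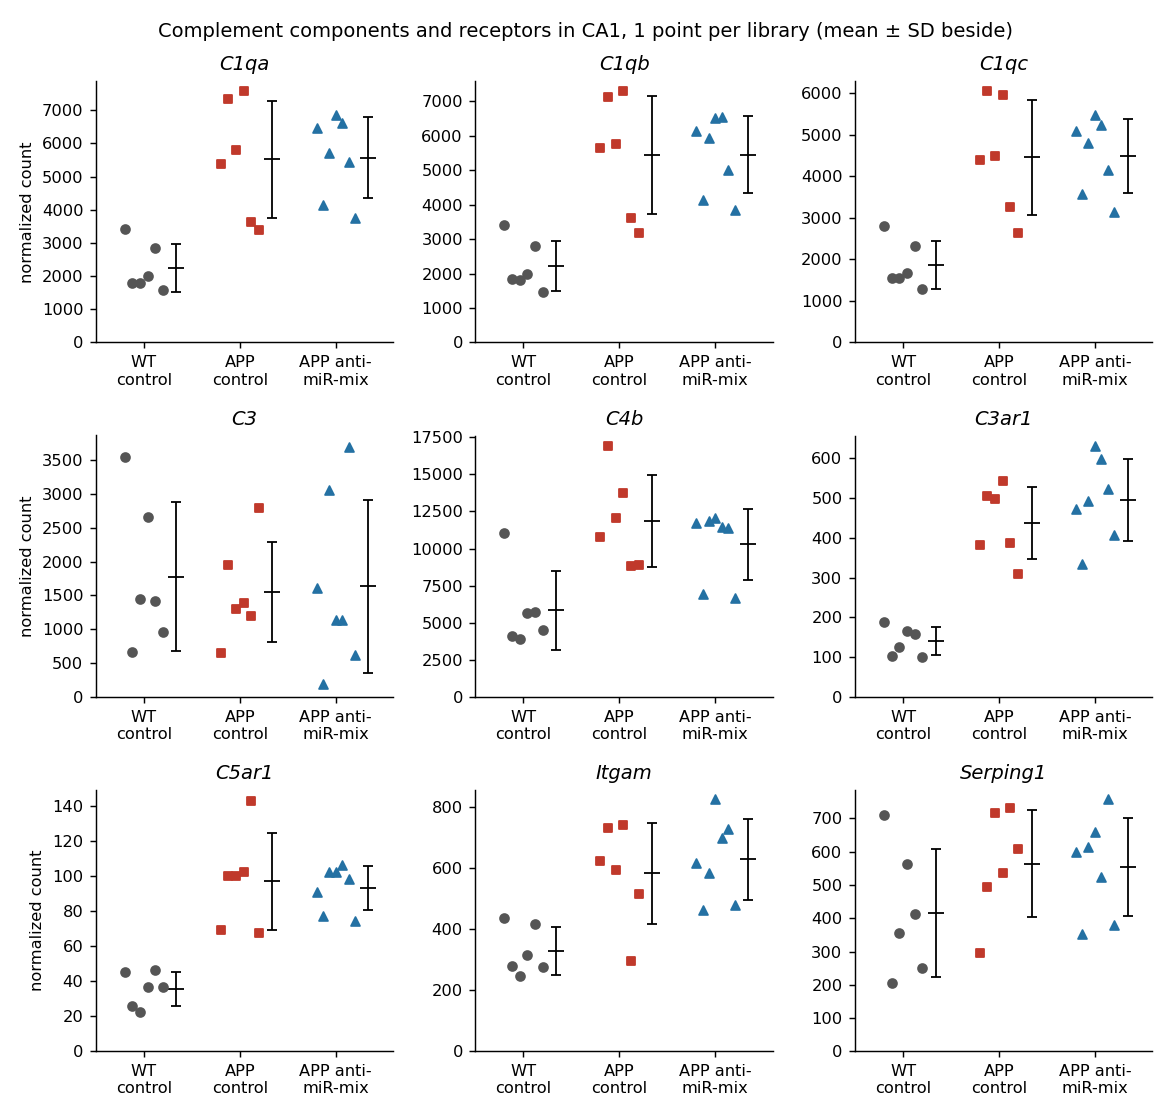
Normalized counts (y axis, linear from 0) of the 9 genes in WT control (circles, n = 6), APP control (squares, n = 6) and APP anti-miR-mix (triangles, n = 7), 1 point per library, with the mean ± SD beside each group. C3ar1 and C5ar1 leave a gap between wild type and both transgenic groups, the C1q chains and C4b touch through WT control 1, and C3 and Serping1 overlap throughout.

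In counts of calls, 7 of the 9 genes passed the threshold in APP control against WT control, all higher, against 4.71% of all genes tested (3.66% higher and 1.05% lower). The threshold was a Benjamini-Hochberg adjusted p of 0.05 over 19297 genes. The median log2 difference of the 9 genes was 1.26 and that of all genes -0.01. For 2 of the 9 genes, C3ar1 and C5ar1, no APP control library overlapped with WT control on the higher side, as for 1.20% of all genes. In APP anti-miR-mix against WT control the same 7 genes passed, all higher, against 8.95% of all genes (5.59% higher and 3.36% lower). Here 6 of 9 genes did not overlap, all called genes but C4b, against 2.52% of all genes, and the median log2 difference was 1.27 against -0.02. Both comparisons use the same 6 WT control libraries.

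With inhibitors against without them in transgenic mice, 0 of the 9 genes passed in DESeq2 and 0 in the edgeR quasi-likelihood test, and the background was 0% of genes in DESeq2. At an unadjusted p under 0.05 there were 0 of the 9 genes and 552 of the 19297 genes (2.86%). The fold differences were 1.01 for C1qa (95% interval 0.759 to 1.34), 1.00 for C1qb (0.754 to 1.33) and 1.01 for C1qc (0.768 to 1.32). For C4b the difference was 0.867-fold (0.607 to 1.24), with 4 of 7 treated libraries above the APP control median, and for C3 it was 1.05-fold (0.504 to 2.20). Among the receptors, C3ar1 differed by 1.13-fold (0.901 to 1.42), C5ar1 by 0.961-fold (0.758 to 1.22) and Itgam by 1.08-fold (0.834 to 1.39). Serping1 differed by 0.984-fold (0.670 to 1.44). When single libraries were left out in turn, C4b and C3ar1 kept their direction and the other 7 genes did not. Without APP control 5 the log2 difference of C5ar1 went from -0.06 to 0.09, that of Itgam from 0.11 to -0.03, that of Serping1 from -0.02 to 0.06 and those of the C1q chains from between 0.00 and 0.01 to between -0.09 and -0.06. C3 turned from 0.08 to -0.26 without APP anti-miR-mix 6, and also turned without APP control 1 or APP anti-miR-mix 3. C3ar1, with a seed match for miR-146a-5p and another for miR-148a-3p, had 5 of 7 treated libraries above the APP control median, while C5ar1 and Itgam, each with a match for miR-181a-5p, had 3 of 7 and 4 of 7. Of the genes that held no match, C1qa, C1qb, C1qc, C4b and Serping1 had 4 of 7 each, and C3 had 3 of 7. A relation between seed matches and these counts was not tested. These intervals leave room for changes of about the size of their bounds, and a p above the threshold does not show equal levels.

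**Figure D3:**
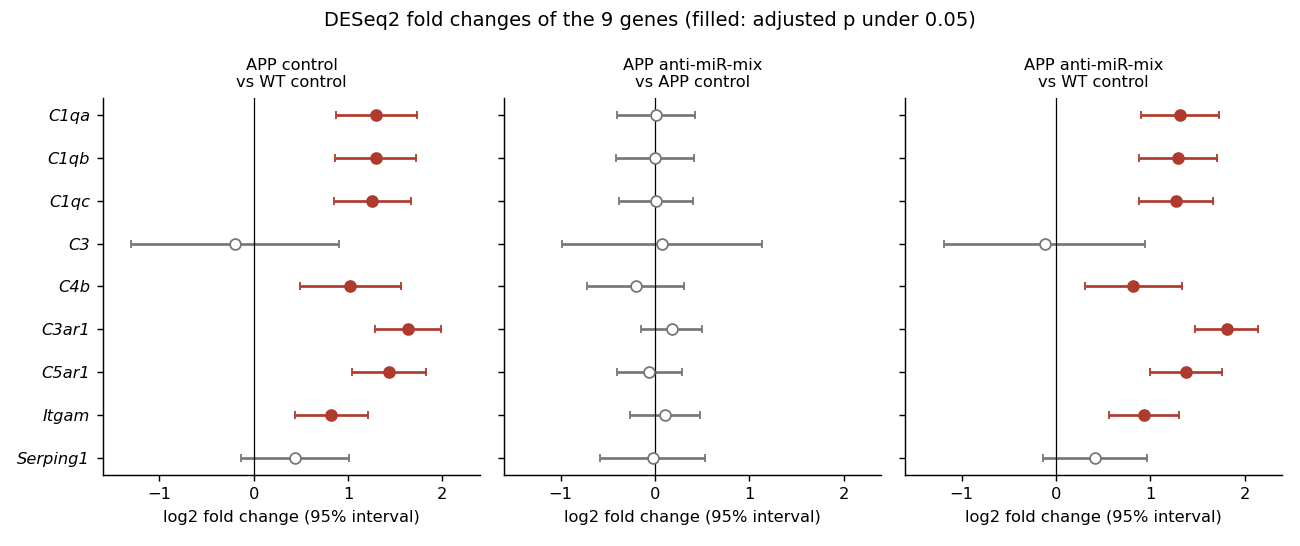
Log2 fold changes of the 9 genes with 95% intervals (x axis) in the 3 comparisons, from a DESeq2 fit of all 19 libraries, filled where the adjusted p was under 0.05. Against WT control 7 genes lie above 0 in both transgenic groups, and between the transgenic groups all 9 intervals include 0, that of C3 being the widest (-0.99 to 1.14).

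Per kilobase of exon, the order of levels in WT control was C1qa (2155 ± 702 normalized counts per kb, SD, n = 6), C1qb (2041 ± 676), C4b (1025 ± 469), C1qc (968 ± 300.1), C3 (346 ± 214), Serping1 (179 ± 82.4), Itgam (65.7 ± 15.9), C3ar1 (32.6 ± 8.37) and C5ar1 (13.8 ± 3.81). Neighbours from C1qa down to Serping1 overlapped in their ranges, although C1qa was above C1qb in 6 of 6 libraries, and the last 4 genes did not overlap with each other. C4b was above C1qc in 3 of 6 WT control libraries, and without WT control 1 the WT control means were 841 for C4b and 870 for C1qc (n = 5), so the order of these neighbours in WT control rests on that library. In APP control C1qc was at 2314 ± 717 and C4b at 2084 ± 548 normalized counts per kb (n = 6), and C1qc was above C4b in 5 of 6 APP control and 7 of 7 APP anti-miR-mix libraries. C3ar1 came close to Itgam there, at 102 ± 21.2 against 116 ± 32.8 normalized counts per kb. C3, next below C1qc or C4b in each group, was above Serping1 in 6 of 6 WT control libraries and in 3 of 6 APP control libraries.

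The markers of microglia moved with the C1q and receptor genes. Of the 9 genes of that list (Cx3cr1, P2ry12, Tmem119, Csf1r, Aif1, Sall1, Siglech, Fcrls and Gpr34), 7 passed the threshold in APP control against WT control, all higher, with a median log2 difference of 0.87. In APP anti-miR-mix against WT control 8 passed with a median of 0.92, and 0 passed between the transgenic groups. Their summed level ranged from 9431 to 14126 normalized counts across WT control, from 11724 to 25213 across APP control, and from 17935 to 26284 across APP anti-miR-mix, and none of the 9 was at 0. For APP control relative to WT control, log2 differences of the list ran from 0.41 for P2ry12 to 1.14 for Fcrls, with Csf1r, the receptor that microglia need to survive, at 0.92. Those of the called receptor and C1q genes ran from 0.82 for Itgam to 1.63 for C3ar1, with C1qa at 1.30. In bulk tissue, more cells of a type and more RNA per cell cannot be told apart, and the part of microglial number in these differences was not tested. Of 7 genes of endothelium and pericytes, Flt1 and Cdh5 passed as higher in both comparisons with WT control (log2 0.30 and 0.39 in APP control), with list medians of 0.06 and 0.08. Of 8 neuronal genes, Gad1 and Gad2 passed as lower in APP control (-0.30 and -0.26) and Gad1 in APP anti-miR-mix (-0.23), 0 of 8 had a positive difference in either, and the list medians were -0.15 and -0.13. Among 9 astrocyte markers, 1 passed in either comparison with WT control, Gfap, at 1.44 and 1.40 on the log2 scale. The list medians were 0.21 and 0.16. The summed astrocyte level was 176343 to 222168 normalized counts across WT control, 194861 to 250306 across APP control, and 192362 to 253861 across APP anti-miR-mix. Of 9 tested genes of blood and infiltrating myeloid cells, 1 and 2 passed the threshold as higher in APP control and APP anti-miR-mix than in WT control, 9 and 8 had a positive log2 difference, and the medians were 0.83 and 0.76. Their summed level was 602 to 908 normalized counts across WT control, 742 to 5379.7 across APP control, the highest in APP control 5, and 613 to 2006 across APP anti-miR-mix. Of 8 genes of meninges and fibroblasts, 0 and 4 passed as higher in the same comparisons, 6 and 7 had a positive log2 difference, and the medians were 0.67 and 0.86. Their summed levels in WT control, APP control and APP anti-miR-mix were 1947 to 5019, 2617 to 6414 and 2772 to 7036.

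Within groups the 9 genes were correlated to different degrees, and no difference between correlations was tested. Over the 19 libraries with group means removed, C1qa correlated with C4b (r = 0.894, rho = 0.874), with C3ar1 (r = 0.856, rho = 0.844) and with Itgam (r = 0.858, rho = 0.895), with permutation adjusted p of at most 6e-05 for each r over 36 pairs (the smallest unadjusted p that the permutations can give is 1e-05). C3 and Serping1 correlated with each other (r = 0.770, permutation adjusted p = 0.000166, and rho = 0.721, adjusted p = 0.00252), and r was 0.780 after the 2 libraries farthest in C3 were left out. Their correlations with C1qa were r = 0.365 (permutation adjusted p = 0.136) and rho = 0.370 (adjusted p = 0.14) for C3, and r = 0.389 (adjusted p = 0.158) and rho = 0.226 (adjusted p = 0.383) for Serping1. C3 correlated with C4b (r = 0.618, permutation adjusted p = 0.0105, and rho = 0.665, adjusted p = 0.0093) and with C3ar1 (r = 0.544, adjusted p = 0.0349, and rho = 0.532, adjusted p = 0.0475), the latter at r = 0.387 without APP anti-miR-mix 2. Serping1 correlated with C3ar1 (r = 0.669, permutation adjusted p = 0.0105, and rho = 0.565, adjusted p = 0.0396), with C5ar1 (r = 0.621, adjusted p = 0.025, and rho = 0.554, adjusted p = 0.0475) and with C4b by r (0.595, adjusted p = 0.0286) but not by rho (0.460, adjusted p = 0.078). C5ar1 and Itgam had the lowest r of all pairs (0.219, permutation adjusted p = 0.431, with rho = 0.416 and adjusted p = 0.124), a value that rests on APP control 5, which had the highest C5ar1 and the lowest Itgam of its group. Without that library the r of this pair was 0.800 (permutation adjusted p = 8e-04, with rho = 0.730 and adjusted p = 0.00188), and C5ar1 had an r of 0.769 with C1qa (0.468 with the library), 0.793 with C4b (0.560) and 0.758 with C3ar1 (0.604). Of the 36 pairs, 23 passed an adjusted p of 0.05 for r, in a permutation test that shuffled libraries within groups, and 28 of 36 passed without APP control 5, where C1qc and C3 had the lowest r (0.304). No share for pairs of other genes is set beside these counts, so they do not set the 9 genes apart. The r of C1qa with Serping1 was 0.510 without APP control 5 (permutation adjusted p = 0.0615) and 0.233 without WT control 1. Library composition and the dissected tissue are shared by all genes of a library and enter all of these values.

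**Figure D4:**
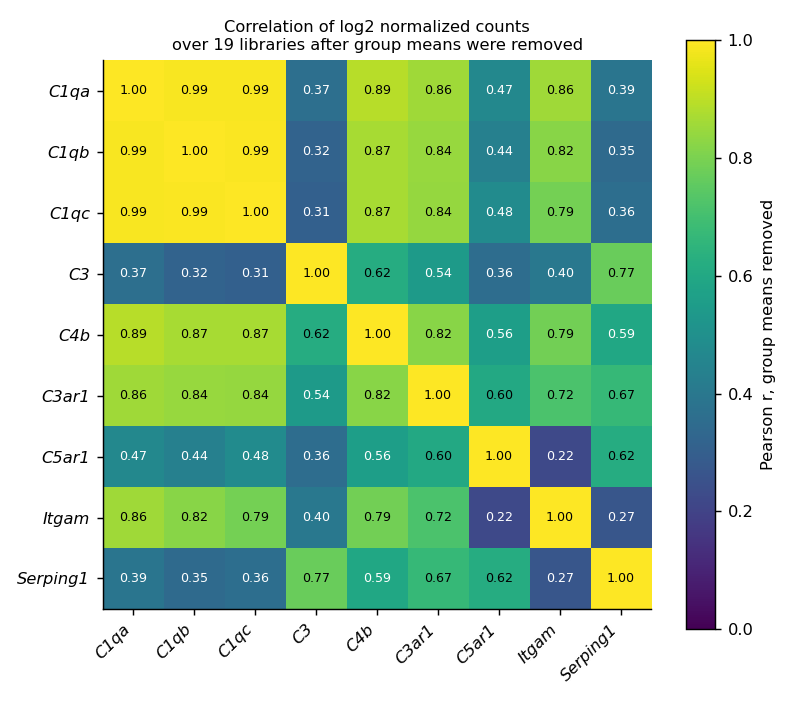
Pearson correlation (colour and printed value, from 0 to 1) between the log2 normalized counts of each pair of the 9 genes over 19 libraries after the mean of each group was removed. C1qa, C1qb, C1qc, C4b, C3ar1 and Itgam form a block of high values, which C5ar1 joins at 0.72 to 0.80 when APP control 5 is left out, C3 and Serping1 pair at 0.77, and C5ar1 and Itgam are lowest at 0.22, or 0.80 without that library.

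The genes closest to each of the 9 were taken as those with the highest r, group means removed, among 14091 genes over the 19 libraries, which is a description and carries no test. Next to the other C1q chains, the gene most like C1qa, C1qb and C1qc was Ptpn6, an inhibitory phosphatase of blood-lineage cells (r = 0.977, 0.986 and 0.976). Closest to C3ar1 were Cd48 (0.958), Tlr1 (0.938) and Ctsh (0.935), and closest to Itgam were Cd180 (0.957), the microglial gene Aif1 (0.947) and Cmtm6 (0.944). C4b was most like S100a6 (0.971), Arpc1b (0.957) and Clic1 (0.946). For C5ar1 the closest were Igsf6 (0.924), Glipr2 (0.842) and Osmr, the oncostatin M receptor (0.837).

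C3 was most like S1pr3, a receptor for sphingosine 1-phosphate (r = 0.949), the metalloreductase gene Steap4 (0.947) and Tgm1, a transglutaminase (0.943). S1pr3 and Steap4 are known to rise in reactive astrocytes. Steap4 ranged from 36.7 to 782 normalized counts over the libraries, and its difference between APP control and WT control was -0.34 on the log2 scale (DESeq2 adjusted p = 0.909). S1pr3 and Tgm1 differed by 0.16 (adjusted p = 0.893) and 0.22 (adjusted p = 0.931) in the same comparison. Serping1 was most like Cp, which encodes the copper protein ceruloplasmin (0.901), Ahnak (0.894) and Tgfbi (0.893). The marker scores for astrocytes, microglia, blood and myeloid cells, choroid plexus and meninges (mean log2 normalized counts of each list) were also compared with C3 and Serping1, with group means removed, in 10 relations. No r passed adjustment, the highest being that of Serping1 with the blood and myeloid score (r = 0.497, permutation adjusted p = 0.277, and rho = 0.593, adjusted p = 0.0483; r = 0.463 without the 2 libraries farthest in that score).

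Other complement genes were examined to place these differences within the cascade. Of 49 further genes of the pathway, 33 were tested and 16 had too few reads, at most 69 reads in all libraries together. In APP control against WT control 3 of the 33 passed, all higher, where 3.66% of all genes tested passed as higher, and the median log2 difference was 0.01. These 3 were C5ar2, Itgax and Itgb2. In APP anti-miR-mix against WT control the same 3 and C2 passed, 4 of 33 where 5.59% of all genes passed as higher, and between the transgenic groups 0 of 33 passed in DESeq2 and 0 in edgeR, with 1 at an unadjusted p under 0.05 in either tool.

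The genes C5ar2, Itgax and Itgb2 all encode receptors or their chains. Itgax, the alpha chain CD11c of complement receptor 4, had 32.0, 91.9 and 236 normalized counts across WT control, 95.6, 597 and 927 across APP control, and 440.4, 637 and 1006 across APP anti-miR-mix. It was 5.39-fold higher in APP control (2.79 to 10.4, DESeq2 adjusted p = 4.47e-05), although APP control 5, at 95.6, lay within the WT control range. Itgb2, the beta chain CD18 that pairs with the products of both Itgam and Itgax, was 2.16-fold higher in APP control relative to WT control (1.65 to 2.83, DESeq2 adjusted p = 2.6e-06). C5ar2, the second receptor for C5a, had 20.2 to 46.3 normalized counts across WT control and 50.1 to 69.0 across APP control, with no overlap, and was 1.90-fold higher (1.45 to 2.49, DESeq2 adjusted p = 0.000264). The remaining receptor tested, Cr2, differed by -0.05 on the log2 scale.

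The 16 tested regulators in this list ranged in log2 difference between APP control and WT control from -0.21 for Csmd3 to 0.27 for Clu, both short of the threshold.

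C2, the serine protease that joins C4 in the C3 convertase, had 14.8, 26.6 and 30.0 normalized counts across WT control, 23.4, 29.6 and 49.7 across APP control, and 35.3, 43.6 and 49.8 across APP anti-miR-mix. It was 1.72-fold higher in APP anti-miR-mix than in WT control (1.30 to 2.29, DESeq2 adjusted p = 0.00428), 1.40-fold in APP control (1.03 to 1.89, adjusted p = 0.261) and 1.24-fold between the transgenic groups (0.944 to 1.62, adjusted p = 1.00). C2 shares 41.55% of its 50-base stretches with other annotated genes, mainly Gm20547. Among 8 tested genes of initiation, C2 was the gene that passed. The 2 tested genes of the alternative pathway, Cfb and Cfp, and the 3 of the terminal pathway, Hc, C7 and C8g, did not pass in any comparison, and Hc, which encodes C5, was near the detection limit with means of 8.21, 4.77 and 11.6 normalized counts.

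**Figure D5:**
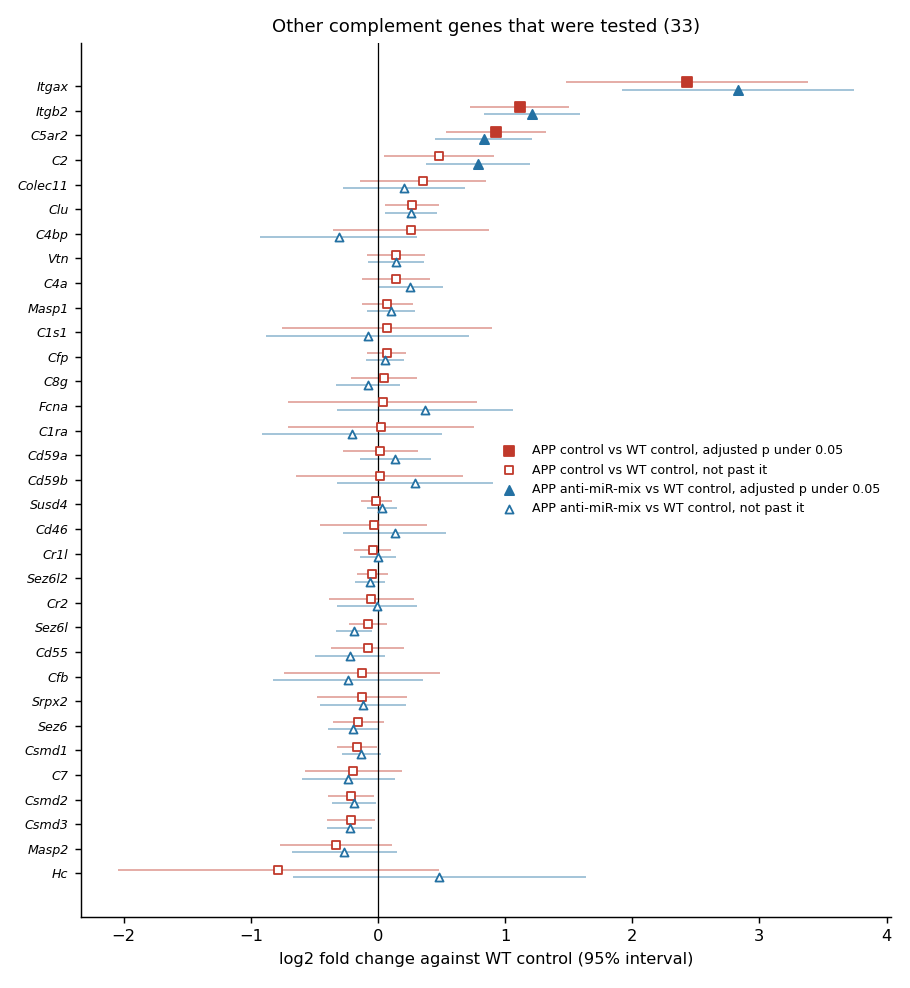
Log2 fold change against WT control with 95% intervals (x axis) for the 33 other complement genes that were tested, for APP control (squares) and APP anti-miR-mix (triangles), filled where the DESeq2 adjusted p was under 0.05. Itgax, Itgb2 and C5ar2 are filled in both groups and C2 in APP anti-miR-mix, while the remaining symbols are open, with the widest interval for Hc (-0.78 across APP control, 0.48 across APP anti-miR-mix).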

How the data were processed

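CA1 RNA was sequenced as 50 nt single-end reads from poly(A) libraries. The authors deposited raw read counts per Ensembl gene, made with STAR 2.5.2b on mm10 and featureCounts (Subread 1.5.1), with quality control in FastQC 0.11.5. The annotation release and the strandedness of counting are not given in the sources used here. The authors also deposited a table of log2 values for 18825 genes, used as an alternative and adjusted along a per-library number whose meaning is not given. Symbols came from GENCODE M21, which matched 48349 of 48709 identifiers. The 19297 genes that reached 5 counts in 50% or more of the samples were tested with DESeq2 1.42.0 (R 4.3.3), the tool and filter of the study, with all 3 groups in 1 fit, unshrunken fold changes and a threshold of 0.05 on the Benjamini-Hochberg adjusted p. Intervals are 95% Wald intervals. DESeq2 replaced outlying counts in 2 genes, none of them a complement gene described here. Alternatives used edgeR 4.0.16 and limma 3.58.1. The fits were tested on simulated data, and the figures and summaries were made with Python 3.11.15.

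Nothing states that libraries of a group came from separate litters, so their independence is not known. The p-values weigh group differences against the spread between these samples. Intervals on counts cover counting and sample error as the model estimates it, and the reads had no molecular identifiers. The 9 genes, the lists of other complement genes and the marker lists were chosen with earlier results of these data known. Some items, among them 3 genes of these lists, are not reported here, and counts and scores over the lists leave them out. Named in the text are the 9 genes, other complement genes past the threshold in any comparison with C4a always, and for each of the 9 the 3 genes with the highest correlation of log2(normalized count + 1), group means removed, among genes with a mean of at least 50. Markers, APP control 5 and further complement genes named as examples were chosen after their values were seen. Correlations across libraries were tested with 100000 permutations within groups, adjusted over 36 pairs or 10 relations.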

Additional observations from a re-analysis of the deposited data

Results flagged for a closer look

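The 9 genes were examined for isolated libraries in 27 combinations of gene and group, and 1 combination stood out, where chance gives about 1.35 (1 in 20). In WT control 1, C4b was at 11064 normalized counts (11063.7), far from the other 5 WT control libraries at 3934 to 5729. The gap to the next library was 0.748 of the range of the group. The same library was also the highest of its group for C1qa, C1qb, C1qc, C3, C3ar1, Itgam and Serping1.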

How the results depend on the processing

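Each of the 9 genes was recomputed in 3 comparisons under 30 alternatives, 810 values in all, of which 758 kept direction and side of the threshold. The 7 calls in APP control against WT control were kept under all alternatives, and 0 of the 9 genes passed between the transgenic groups under any. Of the 7 calls in APP anti-miR-mix against WT control, C4b was lost in 10 fits: without WT control 5 and APP anti-miR-mix 6 together (log2 difference 0.79, adjusted p = 0.103) and, over fits leaving out 1 library, without WT control 2, 3, 4 or 6 or APP anti-miR-mix 1, 3, 4, 5 or 6, with adjusted p from 0.0579 to 0.0752 (log2 0.73 to 1.10 over all such fits). The other 42 changes were signs of differences far from the threshold, and their cause was not tested. C3 turned to 0.12 (APP control against WT control) and 0.19 (APP anti-miR-mix against WT control) without WT control 1 and 5, and to 0.12 and 0.20 without WT control 1 alone, with ranges of -0.45 to 0.12 and -0.46 to 0.20 when 1 library was left out. Between the transgenic groups C3 was -0.26 in limma on the deposited table and -0.26 without WT control 5 and APP anti-miR-mix 6, and Serping1 was 0.037 with the adjustment number as a factor. Ranges there without 1 library each were -0.094 to 0.12 for C1qa, -0.11 to 0.11 for C1qb, -0.10 to 0.12 for C1qc, -0.26 to 0.33 for C3, -0.14 to 0.089 for C5ar1, -0.027 to 0.19 for Itgam and -0.15 to 0.064 for Serping1. Over all genes, the count between the transgenic groups was 3 with those 2 groups alone, 1 without WT control 1 and 5, and 0 to 3 without 1 library each. Counts against WT control ran from 621 (edgeR) to 1222 (DESeq2 with a replicate block) for APP control, where 908 was the main value, and from 1169 to 2202 for APP anti-miR-mix, where it was 1727. Same-numbered libraries deviated together in some pairs and not in others (correlations of -0.157 to 0.594, and at most 2 of 6 libraries closest to their own number), so the numbers were not taken as pairs. With the replicate number as a block in DESeq2, 7, 0 and 7 of the 9 genes were called, the 3 comparisons gave 1222, 1 and 2202 genes, and 5 in place of 3 other complement genes passed in APP control and 7 in place of 4 in APP anti-miR-mix against WT control. Between the transgenic groups the block gave -0.0902 for C3, 0.010 for C5ar1 and 0.010 for Serping1 in DESeq2, and -0.034, 0.016 and 0.024 in edgeR. In alternatives chosen after seeing the data, C4b minus C1qc in WT control went from 56.9 to -29.2 normalized counts per kb without WT control 1, and the correlation of C5ar1 and Itgam from 0.219 to 0.800 without APP control 5. The ratios of C1qa to C1qb and to C1qc were 1.01 to 1.02 and 1.20 to 1.23 per group without division by length. Sex as a covariate was not run, because all 19 libraries were male by Xist (at most 23 reads) and Ddx3y (at least 659 reads).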
